A study of Mus musculus with 24 samples.

Results

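The transcripts of 10 core circadian clock genes were followed in mouse liver by RNA sequencing: Arntl, Clock, Npas2, Per1, Per2, Cry1, Nr1d1, Nr1d2, Dbp and Nfil3. They were matched by gene symbol, and all 10 were found among the 41388 genes of the count files and passed the filter on low counts. The mice were floxed controls (genotype label Control, fl/fl) or mice with a liver-specific knockout of alanine transaminase 2, the product of Gpt2 (genotype label LSALT2KO). Mice of both genotypes had food ad libitum or went without it for 18 h, which gives the groups control fed (n = 5 libraries), control fasted (n = 5), knockout fed (n = 6) and knockout fasted (n = 6). The sources used here do not give the Cre driver, the age of the mice or the time of day at which livers were taken. The labels do not say that the libraries of a group came from separate animals, so p-values measure the spread between these 22 libraries.

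The clock runs as a transcriptional feedback loop. ARNTL (also called BMAL1) pairs with CLOCK or with its relative NPAS2 and activates genes that carry an E-box, among them the Per, Cry and Nr1d genes and Dbp. The PER and CRY proteins feed back to inhibit that pair, and NR1D1 and NR1D2 (REV-ERB alpha and beta) repress Arntl and Nfil3 through an element bound by REV-ERB and ROR receptors, called the RORE. DBP activates and NFIL3 represses genes with a D-box. In liver the timing of feeding is a strong setter of this loop, and Per1 also responds to glucocorticoid and cAMP signals.

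Of the 24 libraries deposited, 22 entered every value below, with 18.4 to 55.3 M counted reads each (M for mega-reads, median 37.57 M). The deposited file of control fed replicate 6 broke off early, with its complete lines all from chromosome 1. Control fasted replicate 4 carried kidney transcripts, with 8 kidney markers summing to 12311 CPM (read counts scaled to a common library size) against at most 16.0 in the 22 others, and 7 hepatocyte markers summing to 1827 CPM against 71841 to 156475 in the others. The knocked-out gene followed the labels: Gpt2 spanned 307.1 to 446.9 CPM in control fed, 557.3 to 794.7 in control fasted, 48.3 to 78.0 in knockout fed and 52.1 to 148.2 in knockout fasted livers (log2 -2.61 ± 0.19 in fed and -2.64 ± 0.19 in fasted livers, edgeR adjusted p = 1.55e-08 and 1.23e-08). Among all 16757 genes tested, edgeR called 3.99% higher and 4.13% lower after fasting in control mice, and 2.88% and 3.26% in knockout mice. Among markers of liver cell types, edgeR called 2 of 7 hepatocyte markers higher after fasting in control and 1 of 7 in knockout mice, and 1 of 5 endothelial markers higher in each genotype. Stellate cell markers were lower for 2 of 6 in control and 1 of 6 in knockout mice, and bile duct markers for 1 of 5 in control mice. Most of these calls depended on single libraries or on the run of title numbers, a grouping described with Per1 below. With that run as a term both hepatocyte calls in control mice, Apoa1 and Apob, were lost (edgeR adjusted p = 0.127 and 0.206), as were the stellate Col1a1 (0.158) and the bile duct Spp1 (0.0725). Apoa1 was also lost on leaving out replicate 3 or 5 of the control fed group or replicate 1, 2 or 5 of the control fasted group (adjusted p 0.0506 to 0.0758), and Apob on leaving out replicate 1, 2, 3 or 4 of the control fed group or replicate 1 or 5 of the control fasted group (0.0618 to 0.154). Col1a1 was lost on leaving out replicate 5 of the control fed (0.0933) or of the control fasted group (0.0512), and Spp1 without control fasted replicate 2 (0.0658). The endothelial Lyve1 was lost in control mice without control fasted replicate 3 (0.0578), and in knockout mice on leaving out replicate 2, 3 or 5 of the control fed, 6 of the control fasted, 1, 2, 4, 5 or 6 of the knockout fed or 2, 3, 4 or 5 of the knockout fasted group (0.0517 to 0.155). The summed stellate cell markers spanned 106.3 to 141.9 CPM in control fed, 63.6 to 115.5 in control fasted, 125.6 to 158.7 in knockout fed and 83.0 to 132.9 in knockout fasted livers, and the summed endothelial markers 83.5 to 126.2, 109.9 to 144.0, 121.0 to 176.2 and 121.3 to 190.4 CPM. The stellate Col3a1 kept its call in 29 of 29 alternative settings in control mice (log2 -1.33, edgeR adjusted p = 8.07e-05) and in knockout mice (-1.45, 5.39e-06). The hepatocyte Hnf4a call in knockout mice (0.48, edgeR adjusted p = 0.00373) was lost only on adding control fasted replicate 4 back (0.117). The part of cell composition in the results below was not tested. In bulk liver, fewer cells of a type and less RNA per cell cannot be told apart.

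The start sites of the members were searched for the letters of these elements. RefSeq promoter windows (build GRCm38.p6, 250 bases before to 50 after a start) were matched for 9 of the 10 members, with 13 windows in all, and Per2 is named only. Both strands were searched for the E-box CACGTG, the RORE core TAGGTCA or TGGGTCA, the D-box TTATGTAA or TTACGTAA, and the cAMP response element TGACGTCA. An E-box is its own reverse complement, as is TGACGTCA, so each such match counts once. A match was found in 4 members, shown here on the strand of the gene because the results below turn on how these genes moved relative to each other, with the matched letters in capitals.
Arntl, RORE core starting 31 bases after the start, chr7:113207530-113207559, + strand: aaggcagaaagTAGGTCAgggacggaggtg
Nfil3, RORE core on the opposite strand, 12 bases upstream, chr13:52981033-52981062, - strand: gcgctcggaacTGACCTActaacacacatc
Per1, E-box 166 bases upstream, chr11:69098756-69098815, + strand: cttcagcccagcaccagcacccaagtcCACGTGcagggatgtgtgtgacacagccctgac
Cry1, E-box 60 bases upstream, chr10:85185082-85185141, - strand: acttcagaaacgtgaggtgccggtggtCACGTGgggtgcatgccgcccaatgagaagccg
The Per1 E-box lay inside the gene, which begins at chr11:69095217, and upstream of an internal RefSeq start. The Nfil3 match lay upstream of a RefSeq start but inside an exon of the gene as counted, which begins at chr13:52981073 on the - strand. The D-box and the cAMP response element matched no member window. Of all 32851 RefSeq windows of this length, 7.15% held the E-box, 6.45% the RORE core, 1.06% the D-box and 1.79% the cAMP response element. A match is a run of letters and not a measured binding site.

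Levels between genes were compared per kilobase of exon (RPKM, CPM per kilobase), over the 22 libraries. Nr1d1 was the most abundant member at 43.9 ± 12.2 RPKM (SD, n = 22) and exceeded Dbp, the next, in 22 of 22 libraries. Dbp (11.3 ± 6.14 RPKM), Nfil3 (9.74 ± 3.37 RPKM), Nr1d2 (8.66 ± 2.53 RPKM), Per1 (7.13 ± 4.67 RPKM) and Clock (6.66 ± 1.16 RPKM) followed closely, and neighbours in that order exceeded each other in only 9 to 14 of the 22 libraries, so these 5 were not set apart beyond their spread. That order pools groups whose means differed: Per1 was the third in control fasted (9.75 RPKM) and knockout fasted livers (11.2 RPKM), but 6th in control fed (4.09 RPKM) and 7th, below Arntl, in knockout fed livers (3.44 RPKM). Clock exceeded Arntl (3.59 ± 1.41 RPKM) in 21 libraries. Arntl over Per2 (2.73 ± 1.05 RPKM) and Per2 over Cry1 (2.08 ± 0.85 RPKM) held in 14 libraries each. Npas2, the liver's scarce stand-in for Clock, was lowest at 0.455 ± 0.435 RPKM, below Cry1 in 22 of 22 libraries, and had 0 reads in control fed replicate 4 and knockout fed replicate 1, which allow up to 0.105 and 0.077 CPM.

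The members differed widely in how much they varied. Dbp ranged 47.4-fold over the libraries, from 1.71 to 81.3 CPM. Per1 ranged 16.2-fold and Arntl 6.05-fold, whereas Clock stayed within 1.91-fold, from 35.4 to 67.5 CPM. The plot of each member by group shows how much of this spread lay inside the groups.

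**Figure D1:**
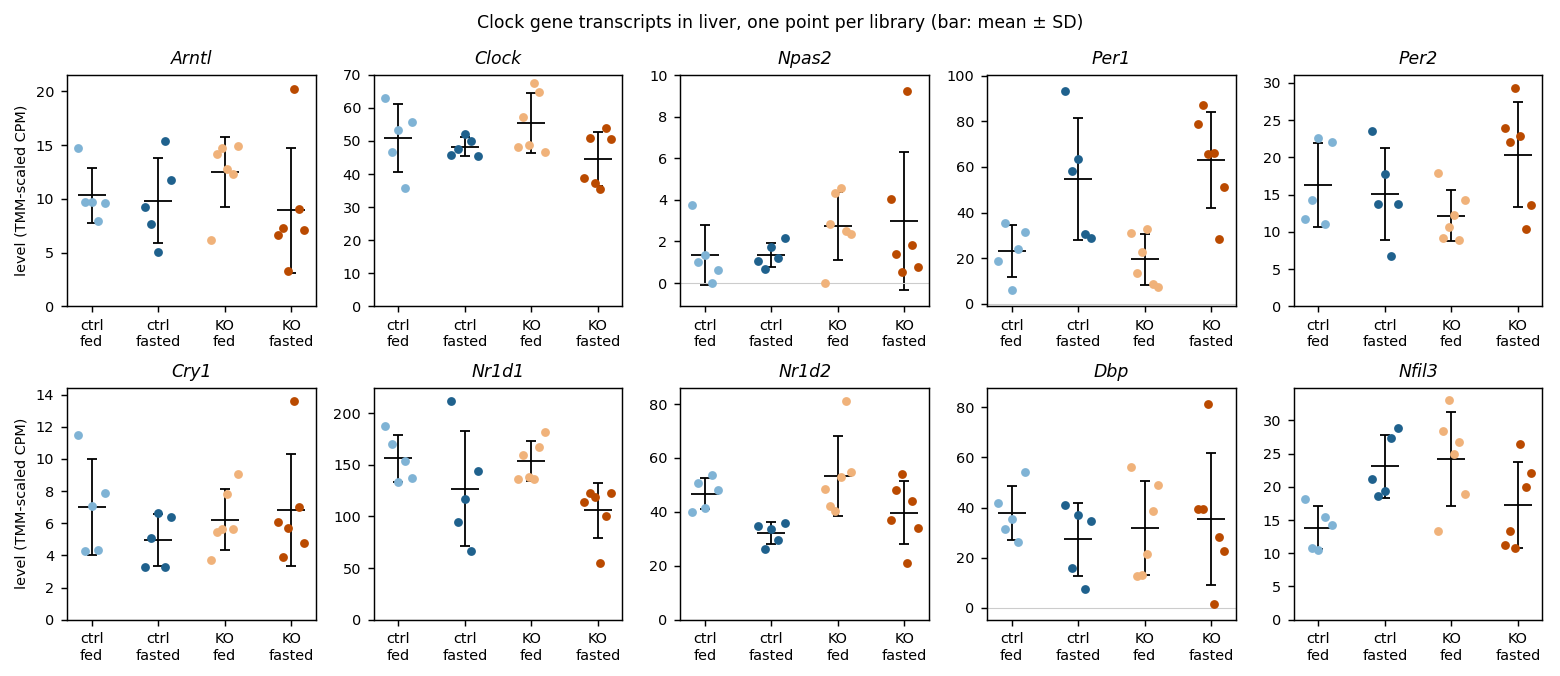
TMM-scaled CPM (vertical axis, linear, a separate scale for each gene) of the 10 clock genes in the 22 liver libraries, with 1 point per library, grouped as control fed, control fasted, knockout fed and knockout fasted; horizontal marks and bars are the mean ± SD. Per1 is the member whose fasted libraries sit mostly above the fed ones in both genotypes (28.6 to 93.6 against 5.78 to 35.2 in control, 28.5 to 87.4 against 7.25 to 32.8 in knockout), and 1 knockout fasted library stands apart in Arntl, Npas2 and Cry1.

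The first question was whether an 18 h fast moved these transcripts. In control mice 0 of the 10 members were called by edgeR's quasi-likelihood test (Benjamini-Hochberg adjusted p under 0.05), against 8.12% of all 16757 genes tested (1360 genes, 3.99% higher and 4.13% lower). An unadjusted p under 0.05 was seen for 3 members (Per1, Nr1d2 and Nfil3), and DESeq2 called 1 of the 10 (Nfil3). The members' median log2 change was -0.10, against 0.00 for all genes. In knockout mice edgeR called 1 of 10, Per1, which was higher, against 6.14% of all genes in either direction (2.88% higher, 3.26% lower). There 6 members had an unadjusted p under 0.05, and DESeq2 also called Per1 and no other member. The members' median was again -0.10, against 0.01 for all genes.

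**Figure D2:**
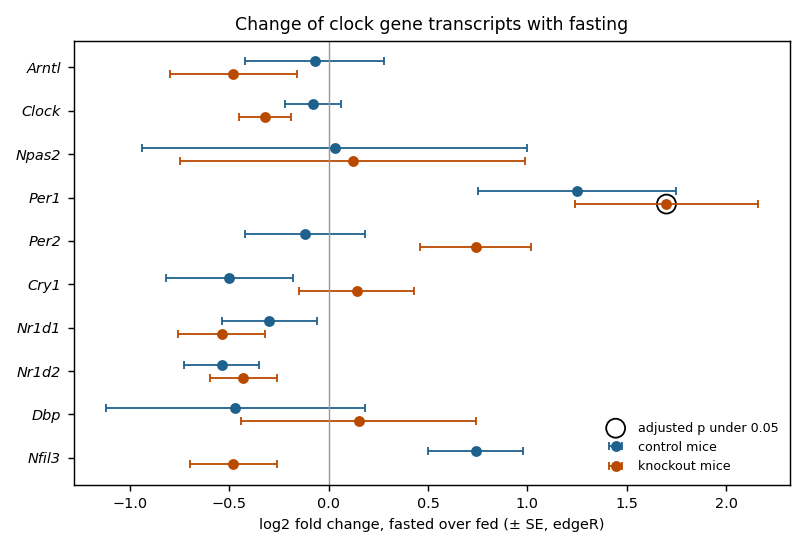
Log2 fold change of each clock gene with fasting (horizontal axis, fasted over fed, from edgeR) in control (blue) and knockout (orange) mice; bars are ± 1 standard error, and a ring marks an adjusted p under 0.05. Per1 lies farthest to the right in both genotypes (1.25 and 1.70), Nr1d1 and Nr1d2 lie left of 0 in both, and Nfil3 lies on opposite sides (0.74 and -0.48).

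Among the inhibitors of the loop, Per1 (ENSMUSG00000020893, chr11:69095217-69109960, + strand), an immediate early period gene, had the widest shift. Control fed libraries 1 to 5 read 18.8, 35.2, 5.78, 24.1 and 31.3 CPM. Control fasted libraries 1, 2, 3, 5 and 6 read 93.6, 58.1, 63.7, 30.4 and 28.6 CPM. Thus 3 of the 5 fasted livers were above every fed liver, and the other two overlapped the upper fed values. The log2 change was 1.25 ± 0.50 (SE), a 2.38-fold difference, with an edgeR adjusted p = 0.15. Knockout fed livers spanned 7.25 to 32.8 CPM (median 18.1) and knockout fasted livers 28.5 to 87.4 CPM (median 66.0). All but the lowest fasted library exceeded the highest fed library, so the ranges met in 1 library. Per1 rose 3.25-fold in knockout mice (log2 1.70 ± 0.46, edgeR adjusted p = 0.0299). That call was lost without knockout fed replicate 2 (adjusted p = 0.0707), 5 (0.0681) or 6 (0.065), and without knockout fasted replicate 1 (0.0592), 2 (0.0623) or 4 (0.0508), while the log2 change stayed between 1.53 and 1.92 whichever library was left out. The numbers in the sample titles fall into separate runs, which the labels do not name as a batch. Within those runs that held both diets, Per1 was higher in the fasted libraries in 2 of 2 control and 5 of 5 knockout comparisons, and with the run as a term in the model the log2 change in knockout mice was 1.73 with an edgeR adjusted p = 0.0874.

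Per2 (ENSMUSG00000055866, chr1:91415982-91459324, - strand), its period partner, was interleaved between diets in control mice. Control fed libraries read 11.7, 14.3, 22.6, 11.0 and 22.1 CPM, and control fasted libraries 23.5, 13.7, 17.7, 6.71 and 13.8 CPM (log2 -0.12 ± 0.30, edgeR adjusted p = 0.907). In knockout mice the range was 8.93 to 17.9 CPM fed (median 11.4) and 10.4 to 29.3 fasted (median 22.4). Of the 6 fasted livers 4 were above every fed liver, and the log2 change of 0.74 ± 0.28 had an edgeR adjusted p = 0.14. Without knockout fasted replicate 5 it was 0.88 with an adjusted p = 0.0475. That was the sole call of Per2 there in 29 alternative settings, where the adjusted p reached 0.303.

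Cry1 (ENSMUSG00000020038, chr10:85131702-85185054, - strand), the cryptochrome partner of the PER proteins, read 11.5, 4.25, 7.07, 4.32 and 7.86 CPM in control fed and 3.30, 5.11, 6.65, 3.30 and 6.41 CPM in control fasted libraries. The log2 change was -0.50 ± 0.32 (edgeR adjusted p = 0.432). In knockout mice it ran from 3.70 to 9.06 CPM fed (median 5.63) and 3.92 to 13.6 fasted (median 5.88), with a log2 change of 0.14 ± 0.29. The ranges of fed and fasted livers overlapped in both genotypes.

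The REV-ERB repressors had log2 changes below 0 in both genotypes. Nr1d1 (ENSMUSG00000020889, chr11:98767932-98775333, - strand) read 187.7, 170.1, 133.0, 154.0 and 136.8 CPM in control fed and 212.0, 94.4, 117.0, 67.0 and 144.2 CPM in control fasted libraries. Of the 5 fasted livers 3 lay below every fed liver, but replicate 1 was the highest of all 22 libraries, and the log2 change was -0.30 ± 0.24 (edgeR adjusted p = 0.575). Knockout fed livers spanned 136.5 to 182.0 CPM (median 148.7) and knockout fasted livers 55.1 to 123.0 CPM (median 116.8). There the ranges did not overlap, as for 3.97% of all genes in either direction (2.15% lower), yet the log2 change of -0.54 ± 0.22 missed the threshold (edgeR adjusted p = 0.185). A fit on the knockout groups alone gave an edgeR adjusted p = 0.0448. That was its sole call there in 29 alternative settings, where the adjusted p reached 0.324. The exons of Nr1d1 share 263 bases with Thra on the other strand, and whether the counting used strand is not stated. Thra itself had log2 changes of 0.14 ± 0.18 and 0.08 ± 0.17.

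Nr1d2 (ENSMUSG00000021775, chr14:18204054-18239127, - strand) read 40.0, 50.6, 41.6, 53.5 and 48.3 CPM in control fed and 34.9, 26.3, 33.8, 29.6 and 36.0 CPM in control fasted libraries. Every fasted liver lay below every fed liver, as for 4.03% of all genes (7.91% in either direction). The log2 change was -0.54 ± 0.19 with an edgeR adjusted p = 0.0803, and it passed the threshold without knockout fed replicate 5 (0.0379) or knockout fasted replicate 4 (0.0207), and in a fit on the control groups alone (0.0108). Those were its 3 calls in 29 alternative settings, and the adjusted p reached 0.222 in the others. In knockout mice the ranges were 40.3 to 81.2 CPM fed (median 50.8) and 20.9 to 53.9 fasted (median 40.4), which overlap, with a log2 change of -0.43 ± 0.17 (edgeR adjusted p = 0.174). The test of the difference between the genotypes gave 0.11 ± 0.26.

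The activators showed no called change. Arntl (ENSMUSG00000055116, chr7:113207465-113314122, + strand) read 14.7, 9.67, 9.68, 7.91 and 9.65 CPM in control fed and 9.27, 7.70, 5.04, 15.4 and 11.8 CPM in control fasted libraries (log2 -0.07 ± 0.35, edgeR adjusted p = 0.958). In knockout mice it spanned 6.16 to 14.9 CPM fed (median 13.5) and 3.33 to 20.2 fasted (median 7.18). Of the 6 fasted livers 5 were below 5 of the 6 fed livers, and the remaining fasted library, replicate 4, was the highest of all. The log2 change was -0.48 ± 0.32 (edgeR adjusted p = 0.547) with that library and -0.90 (adjusted p = 0.0323) without it. The latter was the sole call of Arntl there in 29 alternative settings, where the adjusted p reached 0.75.

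Clock (ENSMUSG00000029238, chr5:76212177-76304548, - strand), the steady partner, read 63.1, 46.7, 53.4, 35.8 and 55.8 CPM in control fed and 45.9, 47.7, 52.1, 50.0 and 45.3 CPM in control fasted libraries. The fasted values sat inside the fed range (log2 -0.08 ± 0.14). In knockout mice it spanned 46.6 to 67.5 CPM fed (median 53.0) and 35.4 to 54.0 fasted (median 44.7), with a log2 change of -0.32 ± 0.13 (edgeR adjusted p = 0.179).

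Npas2 (ENSMUSG00000026077, chr1:39193731-39363234, + strand) read 3.73, 0.997, 1.36, 0 and 0.613 CPM in control fed and 1.07, 0.685, 1.71, 1.22 and 2.17 CPM in control fasted libraries. Its range in knockout mice was 0 to 4.55 CPM fed (median 2.66) and 0.541 to 9.26 fasted (median 1.61). The counts behind these levels were 0 to 411 reads, and the log2 changes of 0.03 ± 0.97 and 0.12 ± 0.87 carry the widest errors of the 10 members.

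The D-box pair came last in the loop. Dbp (ENSMUSG00000059824, chr7:45705088-45710155, + strand), the activator, read 41.7, 31.5, 35.4, 26.4 and 54.0 CPM in control fed and 41.1, 16.0, 36.9, 7.61 and 34.8 CPM in control fasted libraries. Fed and fasted livers overlapped, with a log2 change of -0.47 ± 0.65. In knockout mice the fed range, 12.9 to 56.1 CPM (median 29.9), lay inside the fasted range of 1.71 to 81.3 CPM (median 33.7), and the log2 change was 0.15 ± 0.59. Dbp shares 491 exon bases with Sphk2 on the other strand, which itself rose in control mice (log2 0.47 ± 0.14, edgeR adjusted p = 0.0238) and had 0.01 ± 0.12 in knockout mice.

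Nfil3 (ENSMUSG00000056749, chr13:52967209-52981073, - strand), the D-box repressor, read 18.2, 10.8, 10.5, 15.5 and 14.3 CPM in control fed and 21.2, 18.6, 19.4, 27.4 and 28.9 CPM in control fasted libraries. Each fasted liver was above each fed liver, as for 3.87% of all genes, with a 1.67-fold difference (log2 0.74 ± 0.24, edgeR adjusted p = 0.0621). The adjusted p fell under the threshold without control fed replicate 1 (0.0414), knockout fed replicate 1 (0.0335) or 3 (0.0484), or knockout fasted replicate 1 (0.0493), 3 (0.0443) or 4 (0.0337), in a fit on the control groups alone (0.0142), and by DESeq2 (0.0368). Those were its 8 calls in 29 alternative settings. In the others the adjusted p reached 0.157 with a library left out and 0.571 otherwise. In knockout mice the medians stood the other way: 13.3 to 33.1 CPM fed (median 25.8) and 10.8 to 26.5 fasted (median 16.7), overlapping, with a log2 change of -0.48 ± 0.22 (edgeR adjusted p = 0.266). Within the runs of title numbers Nfil3 was higher in the fasted libraries in 2 of 2 control comparisons, and in knockout mice higher in 2 and lower in 3 of 5, with a median log2 difference of -0.01.

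The difference in the fasting change between genotypes was then tested directly. edgeR's interaction term called 0 of 10 members, 2 had an unadjusted p under 0.05 (Nfil3 and Per2), and DESeq2 called 0. Among all genes 0.00597% were called, which is 1 gene, Zfp871, named because it was the sole call. Nfil3 had the largest member difference, a log2 of -1.22 ± 0.33 (unadjusted p = 0.000982, edgeR adjusted p = 0.658). It combined the higher fasted values in control with the lower ones in knockout mice. Per2 had 0.86 ± 0.41 (unadjusted p = 0.0484, edgeR adjusted p = 1.0), and Per1 had 0.45 ± 0.66, so a difference of Per1's fasting change between genotypes was not detected.

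Loss of Gpt2 left the clock members without a called change in either diet. In fed livers edgeR called 0 of 10, with 1 at an unadjusted p under 0.05 (Nfil3) and 0 called by DESeq2, against 0.00597% of all genes, which is Gpt2 alone. Nfil3 was 13.8 ± 3.26 CPM (SD, n = 5) in control fed and 24.2 ± 7.09 CPM (SD, n = 6) in knockout fed livers, a log2 difference of 0.80 ± 0.24 (unadjusted p = 0.00212, edgeR adjusted p = 0.267). The lowest knockout value, 13.3 CPM, lay inside the control range of 10.5 to 18.2 CPM. In fasted livers edgeR and DESeq2 each called 0 of 10, 0 had an unadjusted p under 0.05, and again 0.00597% of all genes were called, Gpt2. The log2 differences of the members ran from -0.42 to 1.03 in fed and from -0.42 to 1.11 in fasted livers, with Npas2, whose error was 0.94 in both, at the upper end. The members' ranges overlapped between genotypes in all 10 cases in each diet. Ranges apart were rare among all genes too (1.18% in fed and 0.489% in fasted livers), so this does not set the members apart.

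Since the fasting changes of several members pointed the same way in both genotypes, the effect averaged over the genotypes was added after the data had been seen. There edgeR called 2 of 10 members, against 14.3% of all genes (7.08% higher, 7.26% lower). Per1 rose (log2 1.48 ± 0.34, edgeR adjusted p = 0.00466) and Nr1d2 fell (log2 -0.49 ± 0.13, edgeR adjusted p = 0.00857). Nr1d1 came next with -0.42 ± 0.16 (adjusted p = 0.0918), and Nfil3, with its opposite signs, averaged 0.13 ± 0.16. Within the runs of title numbers, Nr1d1 was lower in the fasted libraries in 2 of 2 control and 5 of 5 knockout comparisons, and Nr1d2 in 2 of 2 and 4 of 5.

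The rest of the clock machinery was read from a list of 16 other clock genes, all tested. edgeR called 0 of 16 after fasting in control mice, with 2 at an unadjusted p under 0.05 and 0 by DESeq2. It called 0 of 16 in knockout mice, with 4 at an unadjusted p under 0.05 and 2 by DESeq2, among them Ciart, which was higher. Of all genes edgeR called 8.12% in control and 6.14% in knockout mice. The list's median log2 changes were -0.08 and 0.02. Hlf, a relative of Dbp that also binds D-boxes, had 0.33 ± 0.14 and 0.34 ± 0.12 (edgeR adjusted p = 0.151 and 0.114), the latter at 0.048 without knockout fasted replicate 5. In knockout mice that was its sole call in 29 alternative settings, where the adjusted p reached 0.343. Bhlhe40, an E-box repressor, had -1.16 ± 0.47 in control mice (edgeR adjusted p = 0.165), and -1.72 with an adjusted p = 0.0231 without control fasted replicate 1. That was its sole call there in 29 alternative settings, where the adjusted p reached 0.436. Ciart, a repressor of the ARNTL pair, had 1.46 ± 0.47 in knockout mice (edgeR adjusted p = 0.067). Its adjusted p fell to 0.0169 without control fed replicate 5, 0.0346 without knockout fed replicate 1, and 0.0469 or 0.041 without knockout fasted replicate 4 or 5. Ciart was called in 6 of 29 alternative settings, and its adjusted p reached 0.239 in the others. Fbxl21, a ubiquitin ligase subunit that acts on CRY proteins, had -0.83 ± 0.38 in knockout mice (edgeR adjusted p = 0.265). Averaged over genotypes, Hlf rose by a log2 of 0.33 ± 0.09 (edgeR adjusted p = 0.0105).

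The outputs of the clock in liver were read from a separate list. It was chosen with earlier results of these data known, so its counts are a description only. Of 18 clock-controlled output genes, all tested, edgeR called 5 higher and 0 lower after fasting in control mice (median log2 0.54), and 7 higher and 0 lower in knockout mice (median 0.76). Of all genes 3.99% were called higher in control and 2.88% in knockout mice. Por, the electron donor of microsomal cytochrome P450s, rose by log2 1.5 ± 0.18 in control and 1.11 ± 0.16 in knockout mice (edgeR adjusted p = 1.09e-06 and 2.48e-05). Ppara, the fatty acid receptor of the fasting response, rose by 0.76 ± 0.15 and 0.67 ± 0.14 (adjusted p = 0.000601 and 0.00119). Gys2, liver glycogen synthase, rose by 0.70 ± 0.14 and 0.84 ± 0.13 (adjusted p = 0.000708 and 1.93e-05). Insig2, a brake on sterol synthesis, rose by 1.43 ± 0.26 in knockout mice (adjusted p = 0.00107). Nampt, of NAD salvage, rose by 0.58 ± 0.15 in control mice (adjusted p = 0.0104, or 0.151 with the run of title numbers as a term). Mean Insig2 was also higher after fasting in control mice (127.7 CPM fed, 239.2 CPM fasted). Mean Nampt was higher after fasting in knockout mice too (28.6 CPM fed, 41.8 CPM fasted). The interaction term called 0 of the 18.

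Lists of genes read by the signals that reach Per1 were set beside it. They too were chosen with earlier results of these data known and serve as a description only. Of 10 glucocorticoid responsive genes edgeR called 3 higher in control (median log2 0.84) and 4 higher in knockout mice (median 0.55), with 0 lower. For this list and the next, the shares of all genes called higher were 3.99% in control and 2.88% in knockout mice. Fkbp5, a glucocorticoid-induced co-chaperone, rose by 2.23 ± 0.34 and 2.12 ± 0.31 (edgeR adjusted p = 0.000243 and 0.000152), and the metallothionein Mt1 by 2.52 ± 0.60 and 2.25 ± 0.54 (adjusted p = 0.0112 and 0.0147), the former at 0.0559 with the run of title numbers as a term. In a fit on the knockout groups alone the adjusted p of Mt1 was 0.0584. The metallothionein Mt2 rose by 2.80 ± 0.76 and 2.61 ± 0.69 (adjusted p = 0.027 and 0.0262). Its call in control mice was lost without control fed replicate 1 (adjusted p = 0.0658), 2 (0.0669), 3 (0.0722) or 5 (0.063) or control fasted replicate 2 (0.0527), and in knockout mice without knockout fed replicate 2 (0.0567), 5 (0.0505) or 6 (0.0562) or knockout fasted replicate 4 (0.058). The control call was also lost with the run of title numbers as a term (0.0703). Fits on the groups compared lost Mt2 in control (0.0501) and in knockout mice (0.0555). Cebpd rose in knockout mice by 1.42 ± 0.36 (edgeR adjusted p = 0.0196), or 0.0523 without knockout fed replicate 6. In control mice mean Cebpd was 8.86 CPM fed and 15.8 CPM fasted, without a call. Of 9 cAMP and immediate early genes edgeR called 0 in control mice (3 at an unadjusted p under 0.05, and 3 by DESeq2) and 1 higher in knockout mice: Pck1, of gluconeogenesis, at 0.89 ± 0.25 (adjusted p = 0.0388). That call was lost without knockout fed replicate 1 (adjusted p = 0.0701), 3 (0.0788), 4 (0.0615), 5 (0.0794) or 6 (0.0732), or knockout fasted replicate 1 (0.0727), 3 (0.0705), 5 (0.0772) or 6 (0.0865). It was also lost with library totals as sizes (0.0691), with no filter (0.0712) and with the run of title numbers as a term (0.0527). Mean Pck1 also stood higher after fasting in control mice, without a call (2135.8 CPM fed, 3937.7 CPM fasted). In knockout mice the means were 1934.8 CPM fed and 3582.8 CPM fasted.

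Body temperature also reaches the clock, so 9 temperature responsive genes were read the same way, from a list also chosen with earlier results known. Of these 3 were called higher in each genotype, with 0 lower (median log2 0.46 and 0.47). The list mixes cold-inducible and heat shock genes, so its counts and medians give no direction of temperature. The shares of all genes called higher were 3.99% in control and 2.88% in knockout mice. The cold-inducible RNA-binding genes Rbm3 and Cirbp had log2 changes of 0.78 ± 0.17 and 1.21 ± 0.17 in control mice (edgeR adjusted p = 0.00284 and 6.94e-06). In knockout mice Rbm3 rose by 1.2 ± 0.16 (adjusted p = 2.45e-06) and Cirbp had 0.47 ± 0.15 (adjusted p = 0.0641). The heat shock cognate gene Hspa8 rose by 0.46 ± 0.12 and 0.95 ± 0.11 (edgeR adjusted p = 0.00987 and 1.28e-07), and the inducible Hspa1b by 1.04 ± 0.27 in knockout mice (adjusted p = 0.0155).

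Inside the groups the members moved relative to each other. Each library's log2 CPM was taken as a deviation from its group mean, and the 45 pairs of members were correlated over the 22 libraries, with a two-sided permutation test within groups and Benjamini-Hochberg adjustment over the 45 pairs. Of the 45 pairs 9 passed, 6 positive and 3 negative. The positive pairs joined members of 1 of 2 sets, Arntl with Npas2 and Nfil3 and Npas2 with Cry1 in the first, and Nr1d1, Nr1d2 and Dbp in the second. Clock and Per1 were in none of the 9 pairs.

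**Figure D3:**
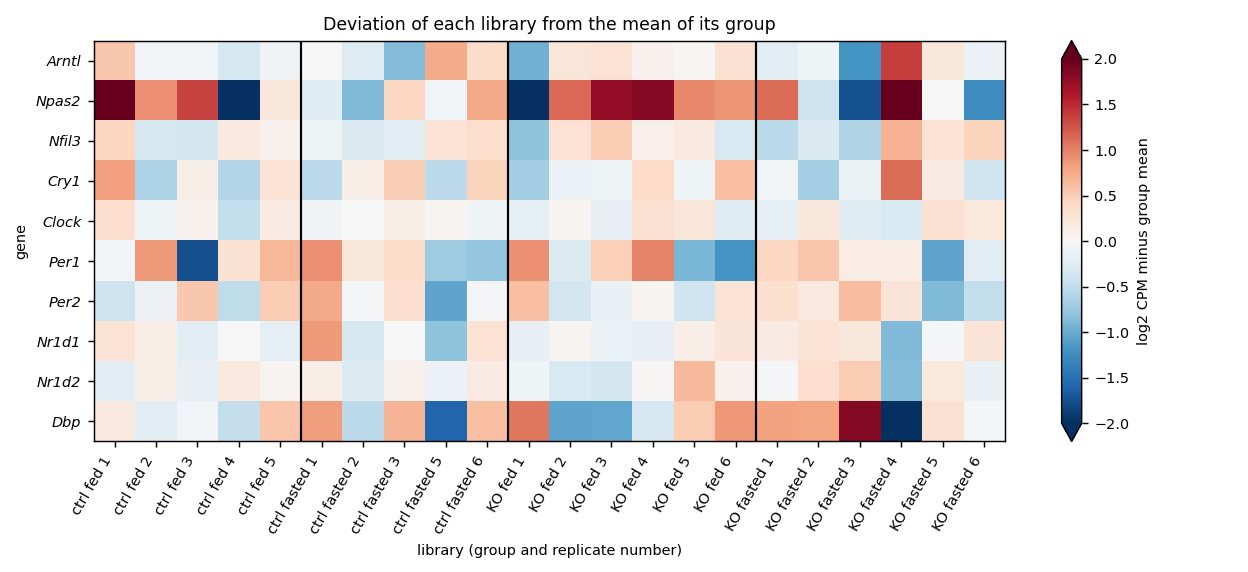
Deviation of each library from its group mean (colour, log2 CPM, blue lower and red higher, limited at -2 and 2) for the 10 clock genes (rows) in the 22 libraries (columns, vertical lines between groups). In knockout fasted replicate 4 Arntl, Npas2, Nfil3 and Cry1 are high while Dbp, Nr1d1 and Nr1d2 are low, and knockout fed replicate 1 shows low Arntl, Npas2, Nfil3 and Cry1 with high Dbp.

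Arntl and Nfil3, the members that hold the RORE core printed above, had r = 0.75 (Spearman's rho 0.66, permutation p = 0.00013, adjusted permutation p = 0.0058). With the 2 libraries farthest in Arntl left out r was 0.65, and the pair passed whichever library was left out, with r between 0.69 and 0.79. Neither Arntl nor Nfil3 passed with Nr1d1 or Nr1d2, the REV-ERB genes. For Arntl r was -0.37 and -0.54 (adjusted permutation p = 0.34 and 0.19), and for Nfil3 -0.24 and -0.38 (0.49 and 0.34). Any part of the RORE in these pairs was not tested. Arntl and Npas2 had r = 0.62 (rho 0.66, adjusted permutation p = 0.0081), and r stayed at 0.62 without the 2 farthest libraries. That pair missed the threshold without knockout fed replicate 1 (r = 0.50, adjusted permutation p = 0.056), a library where Npas2 had 0 reads. Npas2 and Cry1 had r = 0.62 (rho 0.62, adjusted permutation p = 0.016), or 0.58 without the 2 farthest. Without knockout fed replicate 1 or knockout fasted replicate 4 its adjusted permutation p was 0.069 or 0.078, and with the run of title numbers as a term r was 0.45 (adjusted permutation p = 0.12). With that term 12 pairs passed, among them 8 of the 9.

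On the other side Dbp tracked both REV-ERB genes. Nr1d2 and Dbp had r = 0.77 (rho 0.59, adjusted permutation p = 0.016; 0.65 without the 2 farthest libraries), and Nr1d1 and Dbp had r = 0.73 (rho 0.58, adjusted permutation p = 0.018; 0.42 without them). Nr1d2 with Dbp missed the threshold without knockout fasted replicate 3 (0.056) or 4 (0.11), and Nr1d1 with Dbp without control fasted replicate 2 (0.053) or 5 (0.063) or knockout fasted replicate 4 (0.15). Nr1d1 and Nr1d2 had r = 0.56 (rho 0.47, adjusted permutation p = 0.045), which fell to 0.34 without the 2 farthest libraries, and the adjusted permutation p of its rho was 0.14. That relation rested on the 2 farthest libraries. Its adjusted permutation p was 0.053 with RLE in place of TMM scaling and 0.064 with library totals as sizes. The pair missed the threshold in 14 of the 22 fits with a library left out, with adjusted permutation p from 0.054 to 0.08 on leaving out replicate 2 or 3 of the control fed, 1, 2, 3, 5 or 6 of the control fasted, 1, 3 or 5 of the knockout fed or 1, 2 or 3 of the knockout fasted group, and r = 0.30 (0.34) without knockout fasted replicate 4.

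The negative pairs each took a member of the first set. Arntl and Dbp had r = -0.74 (adjusted permutation p = 0.02) but a Spearman's rho of -0.46 (adjusted permutation p = 0.17), and r = -0.45 without the 2 farthest libraries. The pair missed the threshold without control fasted replicate 5 (0.063), knockout fed replicate 1 (0.056), or knockout fasted replicate 3 (0.066) or 4 (r = -0.55, 0.14). It also missed with library totals as sizes (r = -0.68, adjusted permutation p = 0.054). Dbp and Nfil3, the activator and the repressor of the D-box, had r = -0.65 (rho -0.61, adjusted permutation p = 0.016), or -0.57 without the 2 farthest, and missed without knockout fasted replicate 3 (0.066) or 4 (0.078). With library totals as sizes Dbp and Nfil3 missed as well (r = -0.55, adjusted permutation p = 0.06). Per2 and Nfil3 had r = -0.61 (rho -0.64, adjusted permutation p = 0.021), or -0.62 without the 2 farthest. Without control fasted replicate 5 (0.063), knockout fed replicate 1 (0.079) or knockout fasted replicate 3 (0.066) that pair missed the threshold too. With any library left out, no pair that passed changed sign.

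**Figure D4:**
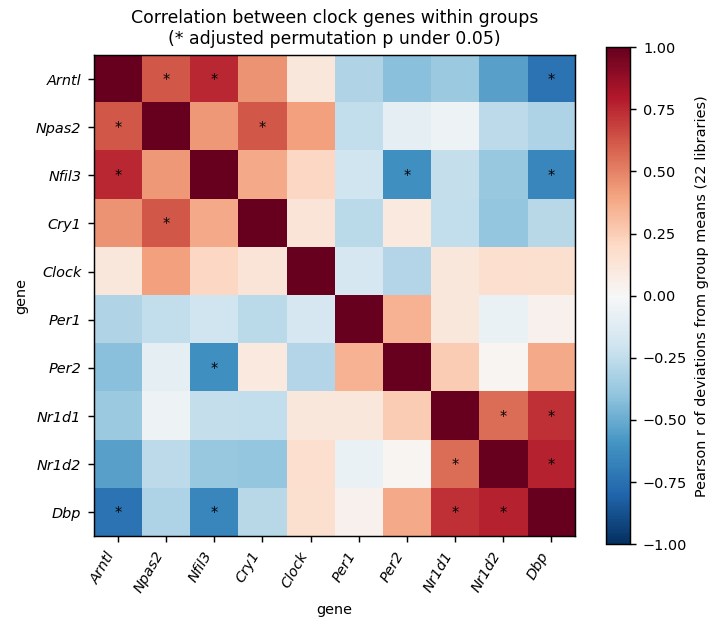
Pearson's r between the 10 clock genes (both axes, colour from -1 to 1) computed on deviations from group means over 22 libraries; an asterisk marks an adjusted permutation p under 0.05 over 45 pairs. The 9 marked pairs are positive within Arntl, Npas2, Nfil3 and Cry1 and within Nr1d1, Nr1d2 and Dbp, and negative for Arntl with Dbp, Nfil3 with Dbp and Nfil3 with Per2.

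The highest Arntl values of the fasted groups lay in 2 libraries where several members stood at the ends of their group. Knockout fasted replicate 4 had Arntl at 20.2, Npas2 at 9.26, Cry1 at 13.6 and Nfil3 at 26.5 CPM, the highest of its group, with Dbp at 1.71, Nr1d1 at 55.1 and Nr1d2 at 20.9 CPM, the lowest of its group. Control fasted replicate 5 had Arntl at 15.4 CPM, the highest of its group, with Dbp at 7.61, Nr1d1 at 67.0 and Per2 at 6.71 CPM, the lowest. Without both, an alternative added after the data had been seen, 4 pairs passed, 3 of them among the 9. Hepatocyte markers summed to 156475 CPM in the first, the highest of the 22, and kidney markers summed to 2.59 CPM there and to 16.0 CPM in the second, the highest of the 22. The part of these marker sums in the deviations was not tested.

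**Figure D5:**
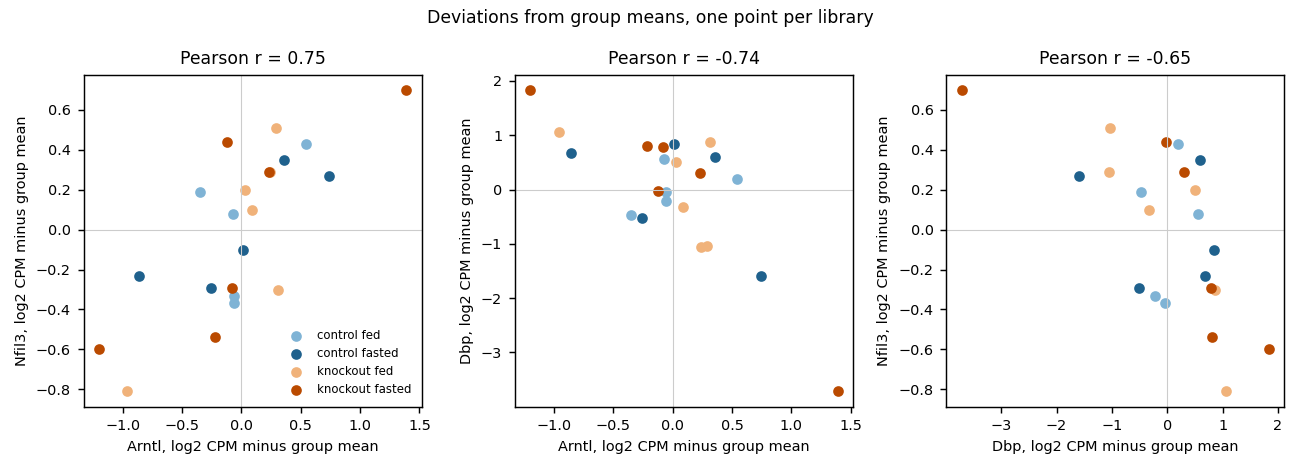
Deviations from group means (log2 CPM, both axes) for Arntl against Nfil3 (left), Arntl against Dbp (middle) and Dbp against Nfil3 (right), with 1 point per library coloured by group. Pearson's r is 0.75, -0.74 and -0.65 in turn, and 1 knockout fasted library lies at the end of each cloud.

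The genes whose log2 CPM followed Arntl and Dbp most closely were listed over the 22 libraries among the 9066 genes whose mean log2 CPM was 2 or more, as a description with no test. All values share the same libraries and their depth. For Arntl the highest r belonged to Celsr1 (0.79), Chd1l (0.77), Tmie (0.76), Efna1 (0.71) and Slc30a10 (0.71). The lowest belonged to Tef (-0.81), a D-box activator related to Dbp, Per3 (-0.73), the third period gene, Alas1 (-0.71), the first enzyme of heme synthesis, Hivep1 (-0.71) and Aprt (-0.71). Both clock genes in that list ran opposite to Arntl. For Dbp the highest r belonged to Cyp2a5 (0.78), a cytochrome P450, Upp2 (0.78), a uridine phosphorylase, Aldh1a1 (0.77), Sord (0.76) and Akr1c19 (0.75). The lowest belonged to Pdk4 (-0.79), the kinase that shuts off pyruvate dehydrogenase in fasting, Clpx (-0.74), Lnx2 (-0.74) and Ndrg1 (-0.70).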

How the data were processed

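The data are read counts per gene from oligo-dT selected liver RNA. The authors' deposited counts were made with bcl2fastq, STAR 2.5.1a and featureCounts 1.4.6-p5 (Subread) on GRCm38, per the submitters' processing notes. The annotation release and strand setting are not given in the sources. The deposited CPM (count over library total) and RPKM (CPM per kilobase) values, per the file headers, were checked against the counts and used for no test. Symbols came from GENCODE M21 (97.3% of 41388 genes). Counts from 22 libraries entered a 4-group fit with edgeR 4.0.16 (R 4.3.3): TMM scaling, a filter on low counts (at least 10 reads, total 15), robust quasi-likelihood tests and Benjamini-Hochberg adjustment over 16757 genes, called under 0.05. DESeq2 1.42.0 was an alternative. Levels are TMM-scaled CPM, and RPKM from them; log2 CPM used a prior count of 0.5. Permutation tests drew 100000 shuffles within groups. The test code was tested on simulated data.

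Named from each other list were up to 4 called genes with the smallest p, with the 5 highest and 5 lowest correlates of Arntl and Dbp; Zfp871, Thra, Sphk2 and the other clock genes given with values were named after values were seen. Some genes that these rules would name are not reported here. Of 8 hepatocyte markers 7 were matched. The members and lists were chosen with earlier results of these data known. Among all 253 pairs of libraries the lowest chi-square per degree of freedom was 31.5, so none was counted as a repeat. Left out were the damaged control fed file and the kidney-like control fasted library. Alternatives were other scaling, no filter, the title-number run as a term (tests and correlations), adding the kidney-like library back (23 libraries), fits on the groups compared, and each library left out. Standard errors and SDs include the spread between libraries, whereas floors (3 reads) cover counting error only.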

Additional observations from a re-analysis of the deposited data

Results flagged for a closer look

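Among 40 combinations of gene and group, 6 held a library set apart from the rest of its group by Dixon's gap ratio at the 95% level, where chance gives about 1 in 20 combinations. Of these, 3 concern knockout fasted replicate 4. Its Arntl level was 20.2 CPM against 9.04 CPM in the next library, its Cry1 level was 13.6 against 7.02 CPM, and its Nr1d1 level was 55.1 against 100.4 CPM in the next lowest. Arntl also stood apart in control fed replicate 1, at 14.7 against 9.68 CPM, and in knockout fed replicate 1, where it was lowest at 6.16 against 12.3 CPM. Nr1d2 stood apart in knockout fed replicate 5, at 81.2 against 54.9 CPM.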

How the results depend on the processing

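No paired analysis was possible because the number in each sample title belongs to 1 library and is shared between no groups. The count of clock members called after fasting in control mice, 0, became 2 (Nr1d2 and Nfil3) in a fit on the groups compared and 1 (Nfil3) with DESeq2, and lay between 0 and 2 with each library left out. In knockout mice the count of 1 became 0 with the title-number run as a term and 2 (Per1 and Nr1d1) in a fit on the groups compared, and lay between 0 and 2 with each library left out. The counts of members called for genotype and for the interaction were 0 under every alternative run.

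Over all genes, the calls for fasting in control mice were 1360, 739 with the run as a term, 805 with 23 libraries and 1088 to 1434 with each library left out. In knockout mice they were 1029, 379 with 23 libraries and 845 to 1075 with each left out. For genotype in fed livers the single call became 5 with library totals as sizes, 14 with no filter, 0 with 23 libraries, 64 with DESeq2 and 1 to 13 with each left out. In fasted livers it became 0 with 23 libraries and 3 with DESeq2, and the interaction became 0 with the run as a term, 0 with 23 libraries, 6 with DESeq2 and 0 to 1 with each left out. The 9 member correlations became 8 with RLE in place of TMM scaling, and 6, of which 1 was negative, with library totals as sizes. They became 12 with the run as a term (8 of the 9 among them), 5 with 23 libraries and 4 without the 2 fasted libraries of highest Arntl. With each library left out they became 4 to 9. The count was 4 without knockout fed replicate 1, knockout fasted replicate 3 or knockout fasted replicate 4, and 5 without control fasted replicate 5.

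Changes of sign met only log2 values without a call, but for Spp1 (-0.73 for fasting in control mice), which became 1.14 with 23 libraries. With library totals, Nr1d1 for genotype in fed livers became 0.02 and Npas2 for the interaction -0.02. With the run as a term, Clock for fasting in control mice became 0.08, Dbp for fasting in knockout mice -0.28, and Nr1d1 0.08 for genotype in fed, 0.20 in fasted livers and 0.12 for the interaction. In fasted livers Npas2 became -1.30 and Per1 -0.02 for genotype, and Npas2 for the interaction became -2.21, or -0.84 with 23 libraries. With each library left out, fasting in control mice ranged from -0.28 to 0.10 for Arntl, -0.18 to 0.01 for Clock, -0.28 to 0.90 for Npas2 and -0.33 to 0.08 for Per2. Fasting in knockout mice ranged from -0.67 to 0.34 for Npas2, -0.17 to 0.28 for Cry1 and -0.28 to 0.41 for Dbp. Genotype in fed livers ranged from -0.31 to 0.08 for Cry1 and -0.08 to 0.05 for Nr1d1, and in fasted livers from -0.57 to 0.07 for Arntl and -0.06 to 0.63 for Dbp. The interaction ranged from -0.78 to 0.40 for Npas2 and -0.40 to 0.03 for Nr1d1. The causes were not tested. Depth limits Npas2 most, with 0 to 411 reads a library.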

Other observations

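Control fasted replicate 4, the library with kidney transcripts, entered none of the comparisons. Its clock transcripts read 63.2 CPM for Per1, 82.2 for Nr1d1, 36.8 for Clock, 32.3 for Nr1d2, 19.4 for Dbp, 8.97 for Per2, 8.86 for Npas2, 5.81 for Arntl, 2.04 for Nfil3 and 1.68 for Cry1, all as TMM-scaled CPM. Its Nfil3 and Cry1 levels were below the lowest values of the 22 liver libraries, 10.5 and 3.30 CPM. Its Npas2 level was above all of them but knockout fasted replicate 4.

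RefSeq promoter windows were matched for 11 of the 16 other clock genes. Per3 held 2 copies of the D-box TTATGTAA, 205 and 158 bases upstream, shown here on the strand of the gene because Per3 was among the genes running opposite to Arntl. The part of these copies in that relation was not tested, and 1.06% of all RefSeq windows held the D-box.
Per3, chr4:151044836-151044897, - strand: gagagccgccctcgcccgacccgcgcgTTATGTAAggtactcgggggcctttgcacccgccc
Per3, chr4:151044789-151044850, - strand: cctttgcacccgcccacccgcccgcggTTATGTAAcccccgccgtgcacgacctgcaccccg
Ciart held 3 E-boxes, 116, 58 and 44 bases upstream, and Tef held 1 in each of its 2 windows. Bhlhe41 held an E-box 153 bases upstream, Timeless a D-box 157 bases upstream, and Hlf a cAMP response element 9 bases upstream.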
